A study of Mus musculus with 6 samples.

Results

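The 8 imprinted growth genes described here are Dlk1, Peg3, Mest, Plagl1, Grb10, Ndn, Sgce and Peg10. They were taken by gene symbol from the deposited tables, and all 8 were found among the 20637 listed genes. Poly(A) RNA of the whole uterus was profiled in female mice on postnatal day 21, with 3 Nat10 f/f libraries as controls and 3 Nat10 d/d libraries in which Nat10 was deleted. Nat10 encodes an acetyltransferase that places acetyl groups on cytidines in RNA. No strain, Cre driver or deleted exon is named by the labels, and they do not say which cells lost the gene. They also do not say that each library came from a separate animal, so the p-values measure only the spread between these libraries, which may be technical.

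Imprinted genes are transcribed mainly from the copy inherited from one parent, because marks such as DNA methylation, laid down in the egg or sperm, differ between the parental copies. Many of them act on fetal and early postnatal growth, and several are known to be abundant in growing tissues and to decline as organs mature. Of these 8 genes, 7 are known as paternally expressed. Grb10 is maternally expressed in most tissues outside the brain. The values analysed are gene totals, in which the parental copies are not separated. In a whole organ, fewer cells of a type and less RNA per cell also cannot be told apart.

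The 8 genes lie at 7 separate places in the mouse genome (GENCODE release M21, build GRCm38, protein-coding genes throughout). Dlk1 lies on chromosome 12 from 109452823 to 109463336 on the plus strand, Plagl1 on chromosome 10 from 13060504 to 13131694 on the plus strand, and Grb10 on chromosome 11 from 11930508 to 12038683 on the minus strand. Chromosome 7 carries Peg3 from 6703892 to 6730431 on the minus strand and Ndn from 62346569 to 62350262 on the plus strand. Ndn consists of 1 exon. Chromosome 6 carries Mest from 30723547 to 30748465 on the plus strand, and Sgce from 4674350 to 4747207 on the minus strand beside Peg10 from 4747306 to 4760517 on the plus strand. The starts of Sgce and Peg10 are 99 bases apart and point away from each other. The last exons of Mest and of Copg2 overlap on opposite strands over 912 bases, which are 23.1% of the exonic bases of Mest. The strandedness of the libraries is not given in the sources used here, so the reads of these bases could have been given to either gene.

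Start regions of 6 of the 8 genes, 9 windows in all, were present in the RefSeq table (build GRCm38.p6). Each window runs from 250 bases before a start to 50 bases after it. The 2 Mest windows below are shown because Mest varied most between libraries and has alternative starts that gene totals do not separate. The Ndn window is shown because Ndn had the largest difference between the group means. Capitals mark CG dinucleotides, the bases at which DNA methylation occurs, in these 3 sequences. The upstream Mest window is chr6:30733256-30733555 (plus strand), the downstream Mest window is chr6:30737800-30738099 (plus strand) and the Ndn window is chr7:62348027-62348326 (plus strand). The Ndn window lies inside the exon that GENCODE gives for Ndn, so RefSeq places the start of Ndn further downstream than GENCODE.
Mest upstream start: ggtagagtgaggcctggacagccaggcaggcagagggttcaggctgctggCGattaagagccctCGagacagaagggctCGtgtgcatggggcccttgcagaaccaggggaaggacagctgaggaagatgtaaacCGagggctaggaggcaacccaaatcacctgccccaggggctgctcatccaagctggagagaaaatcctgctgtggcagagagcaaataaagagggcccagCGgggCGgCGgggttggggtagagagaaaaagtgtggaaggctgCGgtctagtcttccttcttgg
Mest downstream start: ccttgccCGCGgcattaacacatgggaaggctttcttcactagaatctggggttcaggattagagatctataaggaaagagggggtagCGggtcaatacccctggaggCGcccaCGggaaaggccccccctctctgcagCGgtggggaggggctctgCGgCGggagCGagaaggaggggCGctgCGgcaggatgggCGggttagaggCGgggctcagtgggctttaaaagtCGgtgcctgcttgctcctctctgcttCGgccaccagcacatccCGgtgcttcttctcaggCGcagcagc
Ndn start: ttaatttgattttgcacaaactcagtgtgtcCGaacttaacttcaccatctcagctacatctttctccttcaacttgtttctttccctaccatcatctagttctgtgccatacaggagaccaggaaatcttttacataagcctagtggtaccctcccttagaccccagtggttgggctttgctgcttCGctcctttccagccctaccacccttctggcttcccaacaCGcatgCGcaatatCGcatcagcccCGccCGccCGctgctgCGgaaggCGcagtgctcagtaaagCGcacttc

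The upstream Mest window held 8 CG dinucleotides and the downstream one 17. The Ndn window held 11, gathered toward its end, and that of Plagl1 held 26. The 2 Grb10 windows differed most, with 45 and 9. The median over 32851 start regions of the same length was 7, and 98.1% of them held fewer than the first Grb10 window.

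Plagl1 encodes a zinc-finger factor known to bind GC-rich elements, and other imprinted genes are known among its targets. The 8-letter palindrome GGGGCCCC, which reads the same on both strands, was therefore searched in the windows. It occurred in 1 of the 9 member windows, that of Peg3, and in 1.08% of the 32851 start regions. The Peg3 window, chr7:6730370-6730669 on the minus strand, is printed with the match in capitals, which starts at base 50 counted from the 5′ end of the window.
Peg3 start: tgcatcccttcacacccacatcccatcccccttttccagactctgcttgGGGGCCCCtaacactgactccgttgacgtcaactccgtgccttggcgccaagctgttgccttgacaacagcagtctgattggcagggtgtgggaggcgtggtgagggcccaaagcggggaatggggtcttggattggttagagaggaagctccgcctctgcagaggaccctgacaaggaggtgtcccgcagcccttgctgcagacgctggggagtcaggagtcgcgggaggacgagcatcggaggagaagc

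The labels were first checked on the targeted gene. Nat10 was at 13.2, 16.4 and 9.95 FPKM in f/f replicates 1, 2 and 3 and at 5.57, 5.23 and 5.53 FPKM in d/d replicates 1, 2 and 3. FPKM, the unit inferred for the deposited values, is a level scaled for transcript length and for the number of mapped fragments. The f/f and d/d libraries did not overlap. Markers of the tissue layers were present in all libraries: the summed level of 10 smooth muscle genes was 3872 to 4920 FPKM, that of 12 stromal genes 3251 to 4504 FPKM and that of 12 epithelial genes 861 to 1142 FPKM. The deepest library was estimated at 1.26 times the depth of the shallowest.

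All 8 imprinted genes were detected in every library, and their levels spanned a wide range. In f/f uteri the order by mean level was Ndn at 68.1 ± 8.08 FPKM, Sgce at 48.3 ± 3.09, Grb10 at 42.8 ± 3.48, Dlk1 at 37.2 ± 8.42, Plagl1 at 18.2 ± 1.26, Mest at 16.4 ± 3.1, Peg3 at 10.1 ± 0.271 and Peg10 at 1.72 ± 0.232 (SD, n = 3 each). Ndn ranked 1042 among the 20637 listed genes by its f/f mean, and Peg10 ranked 11919. The ranges of the f/f libraries overlapped between Sgce and Grb10, between Grb10 and Dlk1, and between Plagl1 and Mest. Within single libraries Sgce was nevertheless above Grb10 in 3 of 3 f/f libraries, while Grb10 was above Dlk1, and Plagl1 above Mest, in 2 of 3. The order of the means was the same in d/d uteri. There, Ndn also overlapped with Sgce, and Mest with Peg3, and each of the 5 overlapping pairs held its order in 2 of 3 libraries. These orders were not tested.

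**Figure D1:**
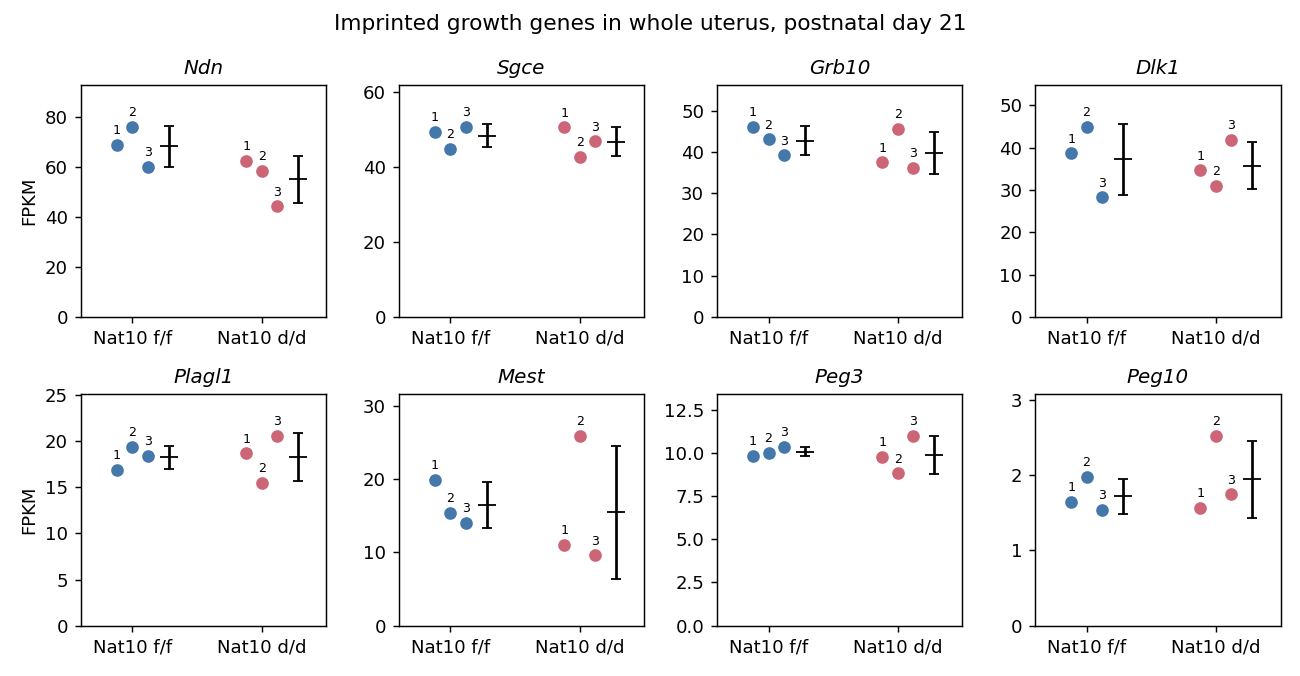
Level of each gene in FPKM (vertical axes from 0, a different scale in each panel) in the 3 Nat10 f/f and the 3 Nat10 d/d libraries, ordered by the mean level in f/f. Points carry the replicate number, and the black mark and bar beside them give the mean and SD; the ranges of the groups overlap in every panel, and Mest in d/d replicate 2 stands at 25.9.

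None of the imprinted growth genes passed the test between Nat10 d/d and f/f uteri. Nat10 itself, with a d/d mean of 41.4% of the f/f mean (log2 change -1.11, SE 0.17), had an adjusted p of 0.669 in limma and was not called either. A gene that misses the threshold here is therefore not shown to be unaffected, and the 95% intervals of the 8 genes reached from -0.99 to 0.59. In limma, 0 of the 8 genes had an adjusted p under 0.05, as did 0 of the 12640 genes tested (0%). At an unadjusted p under 0.05 there were 0 of the 8, against 4.98% of all tested genes. For none of the 8 were the 3 d/d libraries all above or all below every f/f library, as they were for 10.7% of tested genes. For Mest, Peg3 and Plagl1 there were d/d libraries on both sides of the f/f range, and for Mest and Peg3 all 3 lay outside it. The mean of log2(FPKM + 1) was lower in d/d uteri for 7 of the 8 genes, as it was for 43.4% of all tested genes. The mean FPKM was lower for 6 of the 8, as it was for 40.7% of all tested genes, with Plagl1 and Peg10 higher. On the log2 scale the background share was 50.02% to 52.1% under the 3 other scalings, where 7 of the 8 were again lower. Without d/d replicate 2, 4 of the 8 were lower and 4 higher. The median log2 change of the 8 genes was -0.05, and that of all tested genes was 0.03. Changes are given on the log2(FPKM + 1) scale throughout, which understates changes of low genes such as Peg10. With array quality weights, the setting that called most genes, 316 of the tested genes (2.5%) passed the adjusted threshold and 0 of the 8 did. The median size of the change, regardless of sign, was 0.08 for the 8 genes and 0.12 for all tested genes.

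**Figure D2:**
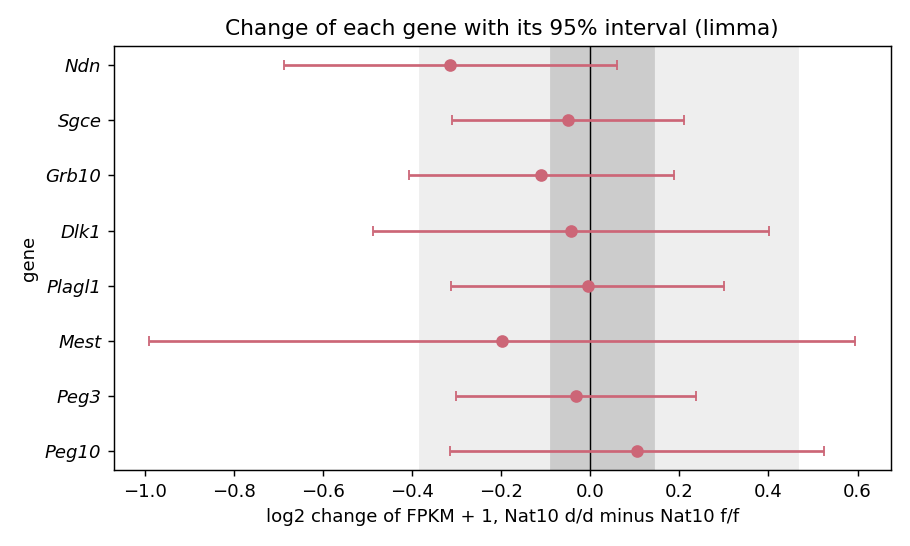
Log2 change of FPKM + 1 between Nat10 d/d and f/f uteri (horizontal axis) with its 95% interval from limma for each gene (vertical axis). The dark band holds the middle 50% of all 12640 tested genes (-0.09 to 0.14) and the light band the middle 95% (-0.38 to 0.47); every interval crosses 0, and that of Mest is the widest at -0.99 to 0.59.

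Dlk1 encodes a membrane protein with EGF-like repeats, part of which is shed, and it is known for holding back the maturation of fat precursors. Its level was 38.6, 44.9 and 28.2 FPKM in f/f replicates 1, 2 and 3 and 34.6, 30.9 and 41.8 FPKM in d/d replicates 1, 2 and 3. All 3 d/d values lay inside the f/f range. Between the groups the log2 change was -0.04 (SE 0.19; 95% interval -0.49 to 0.40; limma adjusted p 0.989), which in linear terms runs from 0.713 to 1.32 times the control value of FPKM + 1. Fat tissue markers differed between libraries, with a summed level of 8 genes of 86.5, 9.85 and 13.5 FPKM in f/f and 28.1, 14.7 and 11.2 FPKM in d/d replicates 1, 2 and 3. The part of fat tissue in the Dlk1 level was not tested.

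Grb10 encodes an adaptor that binds the activated insulin and IGF1 receptors and dampens their signals. It was at 46.1, 43.0 and 39.2 FPKM in f/f replicates 1, 2 and 3 and at 37.4, 45.5 and 36.1 FPKM in d/d replicates 1, 2 and 3. Replicates 1 and 3 of the d/d group were below every f/f library, while replicate 2 was close to the highest. Grb10 had a log2 change of -0.11 (SE 0.13; 95% interval -0.41 to 0.19; limma adjusted p 0.951), which ran from -0.21 without d/d replicate 2 to -0.05 without d/d replicate 3.

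Among the nuclear proteins of the group, Plagl1, known for slowing the cell cycle when overproduced, was at 16.9, 19.4 and 18.4 FPKM in f/f replicates 1, 2 and 3. Its d/d values were 18.7, 15.5 and 20.6 FPKM for replicates 1, 2 and 3. The d/d group held both the lowest and the highest of the 6 libraries, and the means were equal to within 0.1 FPKM. The log2 change was -0.01 (SE 0.13; 95% interval -0.31 to 0.30; limma adjusted p 0.997).

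Peg3 encodes a large zinc-finger protein linked to maternal behaviour, growth and cell survival. It was at 9.83, 10.02 and 10.4 FPKM in f/f replicates 1, 2 and 3, with an SD of 2.69% of the mean, the smallest of the 8 genes relative to its mean. In d/d replicates 1, 2 and 3 it was at 9.77, 8.81 and 11.0005 FPKM, with values below and above the f/f range. Peg3 had a log2 change of -0.03 (SE 0.12; 95% interval -0.30 to 0.24; limma adjusted p 0.989). In linear terms this interval runs from 0.812 to 1.18 times the control value of FPKM + 1.

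Ndn encodes necdin, a MAGE-family protein of neurons and precursor cells that is known to restrain proliferation. It was at 68.5, 75.9 and 59.8 FPKM in f/f replicates 1, 2 and 3 and at 62.3, 58.3 and 44.1 FPKM in d/d replicates 1, 2 and 3. The d/d mean was 80.6% of the f/f mean, the lowest ratio of the 8 genes. Replicates 2 and 3 of the d/d group were below all f/f libraries, and d/d replicate 1 lay within them. The log2 change was -0.31 (SE 0.16; 95% interval -0.69 to 0.06; limma adjusted p 0.922). Among the 12640 tested genes Ndn ranked 1131 by p, and 11.1% of tested genes had a larger change in size. Without d/d replicate 3, the lowest library, the log2 change was -0.17, and with array quality weights it was -0.18. The stromal marker list stood at a median of -0.37, -0.24 and -0.19 relative to the f/f mean in d/d replicates 1, 2 and 3, against -0.11 to 0.05 in f/f libraries. All 12 of its genes were lower in d/d uteri by the mean of log2(FPKM + 1), against 43.4% of all tested genes, and the groups did not overlap for 2 (16.7%), against 10.7% of all tested genes. Of 10 endothelial markers 9 were lower (median log2 change -0.25), with 4 (40.0%) not overlapping. Of 12 epithelial markers 9 were higher (median 0.19), with 6 of the 12 not overlapping, 5 of these higher and 1 lower. Of 5 tested mesothelial markers 3 were lower (median -0.31), with 2 (40.0%) not overlapping. The mesothelial list stood at -0.18, -0.31 and -0.45 in d/d replicates 1, 2 and 3, against -0.21 to 0.07 in f/f libraries. The smooth muscle list stood at 0.09, -0.12 and -0.16 in these d/d replicates, against -0.04 to 0.10 in f/f libraries. For the fat list the values were 0.23, -0.49 and -0.66, against -0.54 to 0.88 in f/f libraries. The mesothelial, smooth muscle and fat lists thus had the same order over the d/d libraries as Ndn. The stromal and endothelial lists had the opposite order. All 5 tested blood genes were lower (median -0.98), with 0 not overlapping, and the summed level of the blood list was 5581, 2629 and 852 FPKM in f/f and 709, 1723 and 1111 FPKM in d/d replicates 1, 2 and 3. The part of these marker shifts in the Ndn values, or in those of the other 7 genes, was not tested.

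Sgce encodes epsilon-sarcoglycan, a membrane protein of the dystrophin-associated complex that is present in many tissues, smooth muscle among them. Its range over the 6 libraries, 0.24 on the log2(FPKM + 1) scale, was the smallest of the 8 genes on that scale. It was at 49.4, 44.8 and 50.7 FPKM in f/f replicates 1, 2 and 3 and 50.5, 42.8 and 46.8 FPKM in d/d replicates 1, 2 and 3. Of all tested genes, 91.7% had a larger log2 range. On the log2 scale the change was -0.05 (SE 0.11; 95% interval -0.31 to 0.21; limma adjusted p 0.985).

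Peg10 derives from a retrotransposon, encodes gag- and pol-like proteins and is known for its role in the placenta. It was at 1.64, 1.98 and 1.54 FPKM in f/f replicates 1, 2 and 3 and at 1.56, 2.53 and 1.74 FPKM in d/d replicates 1, 2 and 3. Only d/d replicate 2 lay above the f/f range. The log2 change was 0.10 (SE 0.18; 95% interval -0.32 to 0.52; limma adjusted p 0.973). Although the 2 genes start side by side, the level of Sgce was 22.6 to 32.97 times that of Peg10 in f/f libraries. In d/d replicates 1, 2 and 3 the ratio was 32.3, 16.9 and 26.8.

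Mest, which encodes a protein with an alpha/beta-hydrolase fold found in embryonic mesoderm and growing fat, had the widest range of the 8 genes over the libraries on the log2 scale. It was at 19.9, 15.4 and 14.0 FPKM in f/f replicates 1, 2 and 3 and at 10.97, 25.9 and 9.58 FPKM in d/d replicates 1, 2 and 3. Replicates 1 and 3 of the d/d group were below every f/f library and replicate 2 was above every one, so the highest library held 2.71 times the lowest. Of all tested genes, 5.63% had a larger log2 range. The SD in d/d uteri was 58.5% of the mean, against 18.9% in f/f uteri. The means were close, at 16.4 ± 3.1 FPKM in f/f and 15.5 ± 9.07 FPKM in d/d uteri (SD, n = 3). The log2 change was -0.20 (SE 0.34; 95% interval -0.99 to 0.59; limma adjusted p 0.973). Without d/d replicate 2 it was -0.62 (limma adjusted p 0.194), with a d/d mean of 62.5% of the f/f mean, and without d/d replicate 3 it was 0.06. Copg2, whose last exon overlaps that of Mest, was at 17.8 to 19.5 FPKM in f/f and 18.1 to 20.4 FPKM in d/d libraries.

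Replicate 2 of the d/d group, the highest library in Mest, also stood apart in cell-cycle genes. The summed level of 24 proliferation genes was 286, 158 and 203 FPKM in f/f replicates 1, 2 and 3 and 139, 660 and 95.1 FPKM in d/d replicates 1, 2 and 3. Mest and this sum thus had the same highest library, the same second and the same 2 lowest, while f/f replicates 2 and 3 changed places. All 24 proliferation genes were highest in d/d replicate 2, as were 30.1% of all tested genes. Mki67, a marker of cycling cells, was at 10.7, 2.47 and 7.57 FPKM in f/f and at 2.3, 24.0 and 1.28 FPKM in d/d replicates 1, 2 and 3. The part of proliferating cells in the Mest values was not tested.

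The 3 genes whose profile over the 6 libraries lay nearest to that of Mest were Tubb5, Fkbp14 and Tmem107. Likeness was measured as the root mean square difference of the centred log2(FPKM + 1) values among 12632 genes, and it was 0.08, 0.09 and 0.11. Tubb5, a beta-tubulin gene, was at 255.7, 226 and 209.98 FPKM in f/f and 170.3, 355 and 149 FPKM in d/d replicates 1, 2 and 3. Fkbp14, a prolyl isomerase of the endoplasmic reticulum that assists collagen folding, was at 22.1, 19.99 and 15.2 FPKM in f/f and 13.5, 31.6 and 10.6 FPKM in d/d replicates 1, 2 and 3. Tmem107, a protein of the ciliary transition zone, was at 16.8, 13.9 and 12.8 FPKM in f/f and 11.7, 21.7 and 8.25 FPKM in d/d replicates 1, 2 and 3. In each of the 3 the libraries stood in the same order as in Mest, which follows largely from how the 3 were chosen. In all, 106 other tested genes (0.839%) had this order, none of them among the 22 tested proliferation genes. The stromal collagen gene Col1a1, named after its values were seen, had the same highest, second highest and 2 lowest libraries. It was at 765, 677 and 749.9 FPKM in f/f and 394, 984 and 361 FPKM in d/d replicates 1, 2 and 3. The stromal list did not share this profile: 4 of its 12 genes were highest in d/d replicate 2 (Vim, Col1a1, Col3a1 and Lum), and 6 were lowest there (Pdgfra, Dcn, Hoxa10, Hoxa11, Nr2f2 and Mfap5).

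**Figure D3:**
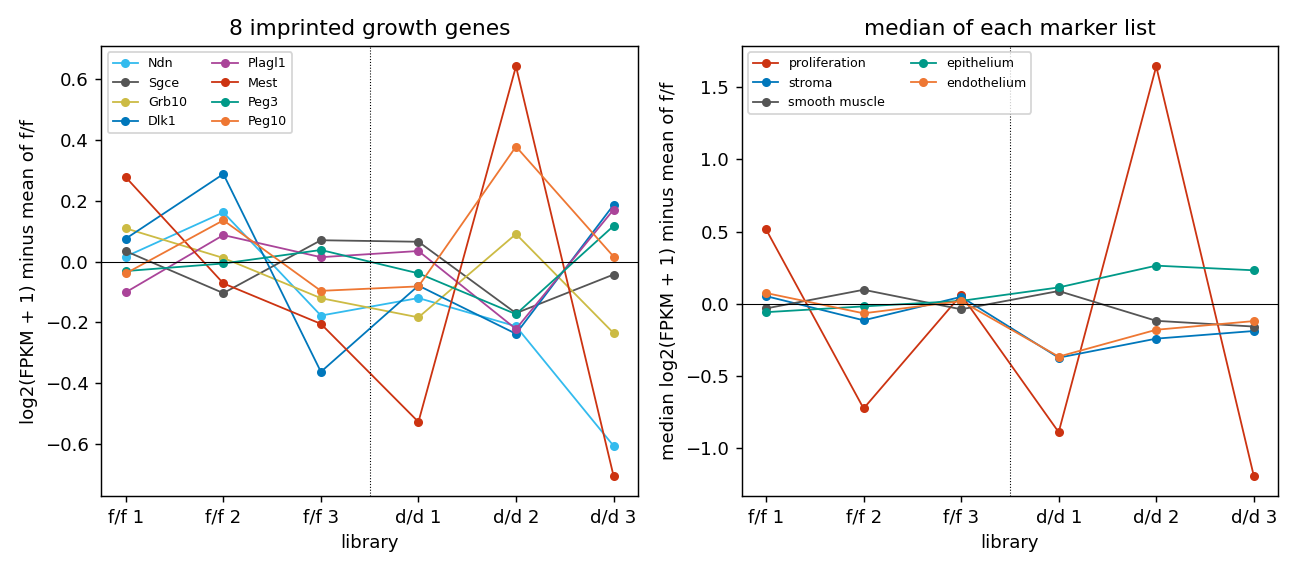
Left, log2(FPKM + 1) of each imprinted growth gene minus its mean over the f/f libraries (vertical axis) in the 6 libraries (horizontal axis). Right, the median of the same quantity over the genes of 5 marker lists, on a wider scale; Mest stands at 0.64 and the proliferation list at 1.64 in d/d replicate 2, and both are lowest in d/d replicate 3 at -0.71 and -1.19.

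The d/d group was the more variable one for 7 of the 8 genes on the log2 scale, the exception being Dlk1. The same was true of 73.9% of all tested genes. Replicate 2 of the d/d group divided the 8 genes. It lay above both other d/d libraries for Mest, Grb10 and Peg10, below both for Dlk1, Peg3, Plagl1 and Sgce, and between them for Ndn. Among all tested genes 40.1% were above, 38.8% below and 21.1% between. Without this library Dlk1, Peg3, Plagl1 and Sgce had d/d means of 101% to 108% of control. Grb10 was then at 86.0%, Ndn at 78.1% and Peg10 at 96.2%, and no gene of the 8 passed the adjusted threshold (smallest limma adjusted p 0.194, that of Mest).

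The genes next to the 8 in their imprinted clusters were examined as a list of 32, of which 27 were listed, 18 were tested and 5, Meg3, Rian and Mirg among them, were not analysed here. None passed the adjusted threshold, and the groups did not overlap for 3 of the 18 (16.7%), against 10.7% of all tested genes. By the mean of log2(FPKM + 1), 12 of the 18 were higher and 6 lower in d/d uteri, while 43.4% of all tested genes were lower. Their median log2 change was 0.09. Dio3, at the far end of the Dlk1 cluster, encodes the deiodinase that inactivates thyroid hormone. It was at 3.93, 2.47 and 2.28 FPKM in f/f and at 1.51, 0.775 and 2.23 FPKM in d/d replicates 1, 2 and 3, with the highest d/d library just under the lowest f/f library. This made a log2 change of -0.66 (SE 0.26; adjusted p 0.922 in limma), which was -0.43 without d/d replicate 2 and -0.97 with a pseudocount of 0.1. Snrpn, a splicing gene of the same imprinted region as Ndn, was at 9.19, 8.49 and 10.6 FPKM in f/f and 10.9, 11.1 and 11.6 FPKM in d/d replicates 1, 2 and 3. Its reads could not be told apart from those of Snurf, which is encoded by the same transcripts. Its difference on the log2 scale was 0.23 (SE 0.12; adjusted p 0.922 in limma), opposite in sign to that of Ndn. Asb4, near Peg10, was at 0.984 to 1.55 FPKM in f/f and 1.63 to 2.65 FPKM in d/d libraries, a log2 change of 0.46 (SE 0.20; limma adjusted p 0.922), or 0.71 with a pseudocount of 0.1.

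The groups overlapped for the other tested neighbours. Among these Peg12, near Ndn, and Pdk4, near Peg10, both named after their values were seen, had log2 changes of -0.35 (SE 0.31) and 0.26 (SE 0.38). Without d/d replicate 3 these were -0.09 and -0.12. Casd1, beside Sgce, was at 22.5 to 25.4 FPKM in f/f and 22.5 to 27.6 FPKM in d/d libraries (log2 change 0.09). Ppp1r9a was at 10.03 to 10.5 FPKM in f/f and 7.32 to 13.3 FPKM in d/d libraries (log2 change -0.01), and Copg2 had a log2 change of 0.05. Usp29 and Zim1, neighbours of Peg3, did not exceed 0.146 and 0.479 FPKM in any library. Rtl1 reached at most 0.139 FPKM. Magel2, next to Ndn, was listed at 0 in 5 libraries. Ddc, next to Grb10, was listed at 0 in the 3 f/f libraries and at 0.138 to 0.231 FPKM in the d/d libraries.

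Imprinted genes at other places formed a list of 44, with 40 listed, 31 tested and 4, H19 among them, not analysed here. None passed the adjusted threshold; 16 were higher and 15 lower in d/d uteri by the mean of log2(FPKM + 1), and the median log2 change was 0.01. The groups did not overlap for 3 of the 31 (9.68%), against 10.7% of all tested genes. Osbpl5, an oxysterol-binding protein gene, was at 36.3 to 38.4 FPKM in f/f and 30.1 to 33.9 FPKM in d/d libraries (log2 change -0.24, SE 0.10). Gatm, an enzyme of creatine synthesis, was at 8.62 to 9.44 FPKM in f/f and 9.89 to 13.3 FPKM in d/d libraries (log2 change 0.27, SE 0.13). Inpp5f, a phosphoinositide phosphatase gene, was at 11.8 to 13.7 FPKM in f/f and 14.1 to 18.5 FPKM in d/d libraries (log2 change 0.30, SE 0.13). The limma adjusted p was 0.922 for each of these. The change was 0.16 for Gatm without d/d replicate 3, 0.19 for Inpp5f without d/d replicate 1 and -0.15 for Osbpl5 with array quality weights. Mcts2, a retrogene whose reads could have been split with its parent gene and which is named after its values were seen, had the largest log2 change of this list at 0.72 (SE 0.30; limma adjusted p 0.922), or 0.40 without d/d replicate 2, and its groups overlapped.

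Several growth regulators belong to this wider list. Igf2, the fetal growth factor, was at 40.9, 30.3 and 34.7 FPKM in f/f and 39.9, 30.5 and 41.6 FPKM in d/d replicates 1, 2 and 3 (log2 change 0.08, SE 0.16). Igf2r, the receptor that clears it, was at 31.1 to 39.6 FPKM in f/f and 23.4 to 32.3 FPKM in d/d libraries (log2 change -0.32, SE 0.15; limma adjusted p 0.922). This was the lowest change of the list and about the size of that of Ndn, with a d/d mean of 79.6% of the f/f mean, and the groups overlapped. Cdkn1c, an inhibitor of cyclin-dependent kinases, was at 42.8 to 55.7 FPKM in f/f and 36.1 to 58.5 FPKM in d/d libraries (log2 change -0.00). Gnas, the gene of a stimulatory G protein subunit, was at 853 to 890.4 FPKM in f/f and 731 to 875 FPKM in d/d libraries (log2 change -0.14). Dcn, a matrix proteoglycan gene that is also in the stromal list, was at 1033 to 1115 FPKM in f/f libraries and at 1160, 646 and 1197 FPKM in d/d replicates 1, 2 and 3 (log2 change -0.15). Slc38a4, an amino acid transporter gene, had a log2 change of 0.01.

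Genes whose products act with those of the 8, or that keep imprints, formed a list of 28 with 26 tested. By the mean of log2(FPKM + 1), 8 of these were higher and 18 lower in d/d uteri, while 43.4% of all tested genes were lower. None passed the adjusted threshold, and the groups did not overlap for 2 (7.69%), against 10.7% of all tested genes. Nedd4, a ubiquitin ligase known as a partner of Grb10, was at 399 to 417 FPKM in f/f and 331 to 376 FPKM in d/d libraries (log2 change -0.20, SE 0.11; limma adjusted p 0.922). Dag1, the dystroglycan gene, was at 56.0 to 61.1 FPKM in f/f and 42.4 to 55.9 FPKM in d/d libraries (log2 change -0.20, SE 0.13; limma adjusted p 0.924), and its change was -0.08 without d/d replicate 1. The receptor genes Insr and Igf1r had log2 changes of -0.09 and 0.04, and Irs1, their docking protein, of 0.00. Of the sarcoglycans, Sgcb and Sgcd had log2 changes of 0.26 and 0.03. Dnmt1, which copies DNA methylation during replication and was named after its values were seen, was at 21.2, 16.7 and 18.5 FPKM in f/f and 10.7, 39.5 and 11.6 FPKM in d/d replicates 1, 2 and 3. Its highest and its 2 lowest libraries were the same as those of the proliferation sum.

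**Figure D4:**
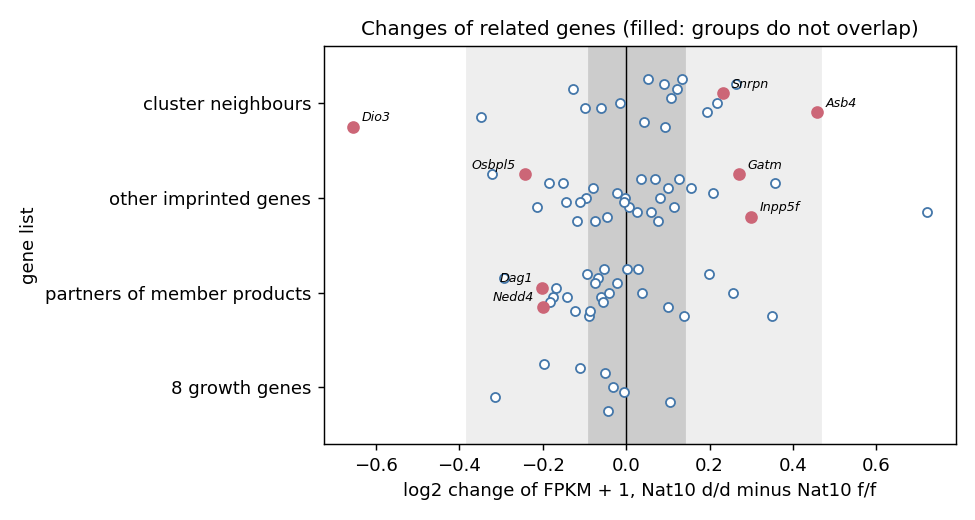
Log2 change of FPKM + 1 between Nat10 d/d and f/f uteri (horizontal axis) for the tested genes of 4 lists (vertical axis; the vertical scatter within a list has no meaning). Filled points are genes whose groups do not overlap, 3 of 18, 3 of 31, 2 of 26 and 0 of 8, against 10.7% of all tested genes. The bands hold the middle 50% and 95% of all 12640 tested genes.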

How the data were processed

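For each library, 1 deposited table lists 20637 genes by Ensembl identifier and symbol. The values are taken as FPKM computed by the authors: HISAT2 2.2.1, Cufflinks 2.2.1 and build mm10 are named, per the submitters' processing notes, and the deposited values are not whole numbers. The unit is inferred, since neither the labels nor the headers name it, and annotation, gene filter and strandedness are not given in the sources used here. Absolute depth is unknown. Relative depth was estimated from the most frequent ratio of values under 0.1 shared with f/f replicate 1, and ranged from 0.805 to 1.016. No 2 libraries were identical.

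Groups and replicate numbers came from the sample titles. Values were analysed as log2(FPKM + 1). Genes with at least 1 FPKM in at least 3 libraries were tested (12640, including all 8 members) with limma 3.58.1 in R 4.3.3 (eBayes with trend, group as the only term, two-sided, Benjamini-Hochberg over all tested genes, threshold 0.05). The fit was tested on simulated data. Positions came from GENCODE M21, which matched 20558 identifiers, and start regions from RefSeq. Python 3.11.15, pandas 2.3.3, numpy 2.4.6 and matplotlib 3.10.9 were used.

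The members and gene lists were chosen with earlier results of these data known. The naming rule took Nat10, the 8 members, a fixed choice of related genes, further related genes whose groups do not overlap, and the 3 nearest profiles of any member ranging over more than 1 log2 unit. Alternatives were a pseudocount of 0.1, other filters, 3 scalings, no trend, array quality weights, a replicate block, and fits without each library in turn. DESeq2, planned for counts only, was not used, as the files hold no counts.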

Additional observations from a re-analysis of the deposited data

How the results depend on the processing

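No member of the 8 passed the adjusted threshold under any of the 15 alternatives. The smallest limma adjusted p of a member was 0.105, that of Mest with array quality weights (log2 change -0.53). Over all genes, array quality weights called 316 genes (2.5%), and leaving out each library called between 0 and 12, the 12 (0.0958%) without d/d replicate 2. All other settings called 0 genes in limma, with 604 to 886 at an unadjusted p under 0.05. The labels do not say whether the replicate numbers pair the samples. Same-numbered f/f and d/d libraries had correlations of -0.34, -0.03 and 0.10 of their deviations from the group means. Differently numbered ones had -0.24 to 0.27. With 3 libraries per group these values cannot show whether the samples are paired. With the replicate block 0 genes and 0 members were called, with 726 genes at an unadjusted p under 0.05. Under 4 of the 15 alternatives 1 member had an unadjusted p under 0.05 in limma: Ndn with quantile normalization (p 0.0367) and with the replicate block (p 0.0328), and Mest with array quality weights (p 0.0179) and without d/d replicate 2 (p 0.00507). Ndn and Grb10 stayed lower in mean in d/d uteri in all alternatives (log2 change -0.41 to -0.17 and -0.21 to -0.05).

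The sign of 16 of the 34 named changes depended on the setting. Over the settings that leave out 1 library the log2 change ran from -0.62 to 0.057 for Mest, -0.23 to 0.10 for Dlk1, -0.11 to 0.039 for Peg3, -0.094 to 0.10 for Plagl1, -0.11 to 0.011 for Sgce and -0.033 to 0.20 for Peg10. It ran from -0.13 to 0.21 for Cdkn1c, -0.31 to 0.14 for Dcn, -0.18 to 0.34 for Igf1r, -0.025 to 0.21 for Igf2, -0.24 to 0.13 for Insr, -0.029 to 0.041 for Irs1, -0.20 to 0.20 for Ppp1r9a, -0.16 to 0.19 for Sgcd, -0.14 to 0.16 for Slc38a4 and -0.12 to 0.64 for Pdk4. With array quality weights it was 0.053 for Plagl1, 0.035 for Sgce, -0.040 for Peg10, 0.15 for Cdkn1c, 0.078 for Dcn, 0.28 for Ppp1r9a, 0.052 for Insr and -0.17 for Sgcd. With quantile normalization it was -0.020 for Slc38a4, -0.0013 for Igf1r and -0.026 for Irs1, with median centring -0.021 for Slc38a4 and -0.025 for Irs1, and with upper-quartile scaling -0.024 for Slc38a4, -0.00068 for Igf1r, -0.037 for Irs1 and -0.0082 for Sgcd. Among changes that kept their sign, leaving out 1 library gave -0.22 and -0.092 for Gnas (without d/d replicates 2 and 3), 0.030 and 0.17 for Casd1 (without d/d replicates 1 and 3), 0.014 and 0.094 for Copg2 (without d/d replicates 1 and 2) and -0.67 for Peg12 (without d/d replicate 2). Array quality weights gave -0.19 for Grb10, -0.38 for Dag1 and 0.69 for Asb4. The causes were not tested. Nat10 (log2 change -1.09, limma adjusted p 0.0386) and Inpp5f (0.48, limma adjusted p 0.0489) passed the threshold with array quality weights. The absolute depth is unknown, so counting error of low genes such as Peg10 cannot be given.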
